A study of Mus musculus with 22 samples.

Results

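Genes of fatty acid oxidation and targets of the nuclear receptor PPARα were followed in mouse liver after loss of the pituitary and after growth hormone (GH). The set consisted of 37 named genes, found on the arrays by the RefSeq accession of a probe or by gene name; the rule that finds them uses no measured value, but the genes were listed with earlier results of these data known. All 37 had a probe, matched by accession, among the 33746 gene names of the array, and all 37 were among the 26175 genes tested, those whose probe cleared the scanner's background test in a channel of both arrays in any comparison. By place and role, 18 were mitochondrial, 7 peroxisomal, 6 served uptake and activation of fatty acids, 2 belonged to lipid droplets (storage) and 4 were secreted or regulatory. The label of the set held as far as expression goes: all but 1 of the probes, that of Acot2, were well above background on every array.

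Fatty acids that reach the hepatocyte are carried by binding proteins, activated to acyl-CoA, and either passed as carnitine esters into mitochondria, shortened in peroxisomes when the chain is very long or branched, or stored as triglyceride in lipid droplets. PPARα senses fatty acids and, paired with the retinoid X receptor at direct repeats of a short site, turns on genes at all of these steps, most of all in fasting liver. GH acts on liver through the transcription factor STAT5. Its release is pulsatile in males and more even in females, which sets many sex differences of liver expression in rodents.

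The liver RNA came from ICR mice aged 8 weeks. M-Sham and F-Sham were males and females with sham surgery and vehicle injection (the labels of single samples call them intact and untreated). M-Hypox and F-Hypox were mice hypophysectomised as adults, which removes all hormones of the pituitary and not GH alone. The treated groups were Hypox mice killed 30 min (GH(30)) or 90 min (GH(90)) after 1 GH injection, or given 2 injections with 4 h between them and killed 30 min later (2GH), in each sex. Each array compared 1 pool of RNA from 2 to 5 mice with another, and 22 arrays covered 11 comparisons among 10 groups, with the dyes swapped between array 1 and array 2 of a comparison. The M-Hypox group held 6 mice, so the M-Hypox pools of 5 mice on both arrays of the 2GH comparison shared mice. Other pools may recur on several arrays. In the comparisons of GH with Hypox, most marker levels given below look like the same Hypox pool on both arrays. The errors leave such sharing out. Agreement of the 2 arrays of such a comparison may therefore hold no spread between Hypox pools.

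Every value is a log2 ratio of the first named group over the second, given on array 1 and array 2 and then as the mean ± SE of a limma fit to all 22 arrays. A gene was called when its Benjamini-Hochberg adjusted p was under 0.05 over all tested genes and both arrays went the same way. The words rose and fell, or higher and lower, are used for called genes only. Bulk RNA cannot tell fewer cells of a type from less RNA per cell.

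Promoters of the set were read from RefSeq (build GRCm38.p6), as 250 bases before to 50 bases after each start. They matched 32 of the 37 genes with 39 promoters; Crat, Acaa2, Decr1, Angptl4 and Vnn1 were not matched. AGGNCA repeated directly with any 1 base between the copies, the form of site that PPARα binds, was searched on both strands and stood in 125 of 32817 promoters (0.381%) and in 1 of the 39 promoters of the set (2.56%), that of Fabp1. The STAT5 motif TTCNNNGAA, which reads the same on both strands, stood in 2722 of all promoters (8.29%) and in 3 of the set (7.69%), those of Cpt2, Hadha and Hadhb. Hadha and Hadhb, the subunits of the mitochondrial trifunctional protein, are neighbours with overlapping promoter windows, so that 1 match serves both. A match describes letters in this window only. The 250 bases before the start are shown for Fabp1 (chr6:71199629-71199878, plus strand), which holds the only direct repeat, and for Cpt2 (chr4:107923590-107923839, minus strand) and Hadhb (chr5:30155003-30155252, plus strand), which hold the STAT5 motif. These 3 genes were among the 12 of the 37 that fell after hypophysectomy in both sexes, while Hadha fell in males and was not called in females (-0.19). A link of either motif to these falls was not tested. Capitals mark the motif, which in Fabp1 lies on the opposite strand.
Fabp1: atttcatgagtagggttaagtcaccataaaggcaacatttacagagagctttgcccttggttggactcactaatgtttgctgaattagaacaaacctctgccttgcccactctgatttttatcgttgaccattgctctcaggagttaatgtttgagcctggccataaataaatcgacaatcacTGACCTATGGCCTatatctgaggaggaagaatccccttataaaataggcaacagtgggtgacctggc
Cpt2: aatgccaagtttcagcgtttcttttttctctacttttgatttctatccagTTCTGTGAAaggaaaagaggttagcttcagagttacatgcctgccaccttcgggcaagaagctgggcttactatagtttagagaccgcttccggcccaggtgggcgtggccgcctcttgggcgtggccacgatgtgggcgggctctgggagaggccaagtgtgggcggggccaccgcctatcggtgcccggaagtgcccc
Hadhb: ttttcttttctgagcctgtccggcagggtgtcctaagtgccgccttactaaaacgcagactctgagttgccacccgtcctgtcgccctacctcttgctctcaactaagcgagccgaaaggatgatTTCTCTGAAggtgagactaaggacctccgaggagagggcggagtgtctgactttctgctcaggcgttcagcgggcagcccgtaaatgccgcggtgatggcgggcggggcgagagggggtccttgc

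The samples were checked against markers of liver and of other tissues. All 7 measured hepatocyte markers were above background in every group. The 15 measured skeletal muscle markers moved with several pools. Their summed normalised intensity was 20160 to 65430 in M-Sham against 2702 to 12580 in M-Hypox, and 2847 to 8123 in F-Sham. In F-Hypox it was 119500 and 121800 on the arrays against 2GH and 2905 to 3204 on the others. In M-Hypox+GH(30) it was 141200 and 135800 on array 1 of its comparisons and 2623 and 2868 on array 2. At least 5 of the 15 muscle markers were above background in every pool. Of 7 lymphocyte markers 6 rose with hypophysectomy in males and 4 in females, with summed levels from 925.3 to 1126 in M-Sham to 2038 to 2441 in M-Hypox and from 1041 to 1209 in F-Sham to 1569 to 2198 in F-Hypox. The part of other cells in the results was not tested. Igf1, the growth factor that liver makes under GH, followed the labels, with -2.46 in M-Hypox over M-Sham and -3.25 in F-Hypox over F-Sham.

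In intact liver, the comparison of M-Sham with F-Sham asked which genes differ between the sexes. Of the 37 genes, 1 was higher and 9 were lower in males, where 8.78% of all tested genes were called (5.03% higher and 3.75% lower). The median over the set was -0.17, against -0.01 over all tested genes. The lower genes were 3 of 7 peroxisomal genes, 5 of 18 mitochondrial genes and 1 of 4 secreted or regulatory genes, and neither storage gene was called. The higher gene was Acsl1, which activates long-chain fatty acids.

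The acyl-CoA thioesterases Acot3 and Acot4 of the peroxisome, which release free acids from acyl-CoA, differed most. Acot3 read -3.53 and -3.27 on the arrays (-3.40 ± 0.26, 10.6-fold lower, adjusted p = 2.49e-06). Acot4 read -2.42 and -1.95 (-2.19 ± 0.20, 4.56-fold lower, adjusted p = 1.45e-05). Both arrays thus placed both genes far below the female level. Ehhadh, the bifunctional enzyme of peroxisomal oxidation, read -0.96 and -0.67 (-0.81 ± 0.11, adjusted p = 0.000534). The pantetheinase Vnn1, which recycles a precursor of coenzyme A, read -1.69 and -1.52 (-1.60 ± 0.29, adjusted p = 0.00324). These 4 had no array near 0.

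The mitochondrial genes that were lower in males differed less. The carnitine acetyltransferase Crat read -0.58 and -0.45 (-0.52 ± 0.10, adjusted p = 0.0064), and Cpt1a, the rate-limiting carnitine transferase of mitochondrial entry, read -0.68 and -0.22 (-0.45 ± 0.13, adjusted p = 0.0479). The acyl-CoA dehydrogenase Acadl read -0.58 and -0.24 (-0.41) and the hydroxyacyl-CoA dehydrogenase Hadh -0.51 and -0.29 (-0.40). Acadm, the medium-chain dehydrogenase, was the smallest of the 5 at -0.16 and -0.35 (-0.26). Acsl1 read 0.61 and 0.72 (0.67 ± 0.17, 1.59-fold higher, adjusted p = 0.0242). With array 1 left out, 2 of the 10 calls were kept (Acot3 and Acot4), and with array 2 left out 5 were kept (Acot3, Acot4, Ehhadh, Hadh and Cpt1a). With arrays centred on their median in place of loess, 3 genes were called, all lower. Of 15 muscle markers 3 were higher in M-Sham in this comparison (median 2.36). Of 6 macrophage markers 2 were lower (median -0.61), with a summed level of 29800 to 34790 in M-Sham against 43740 to 51870 in F-Sham. The part of either was not tested.

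**Figure D1:**
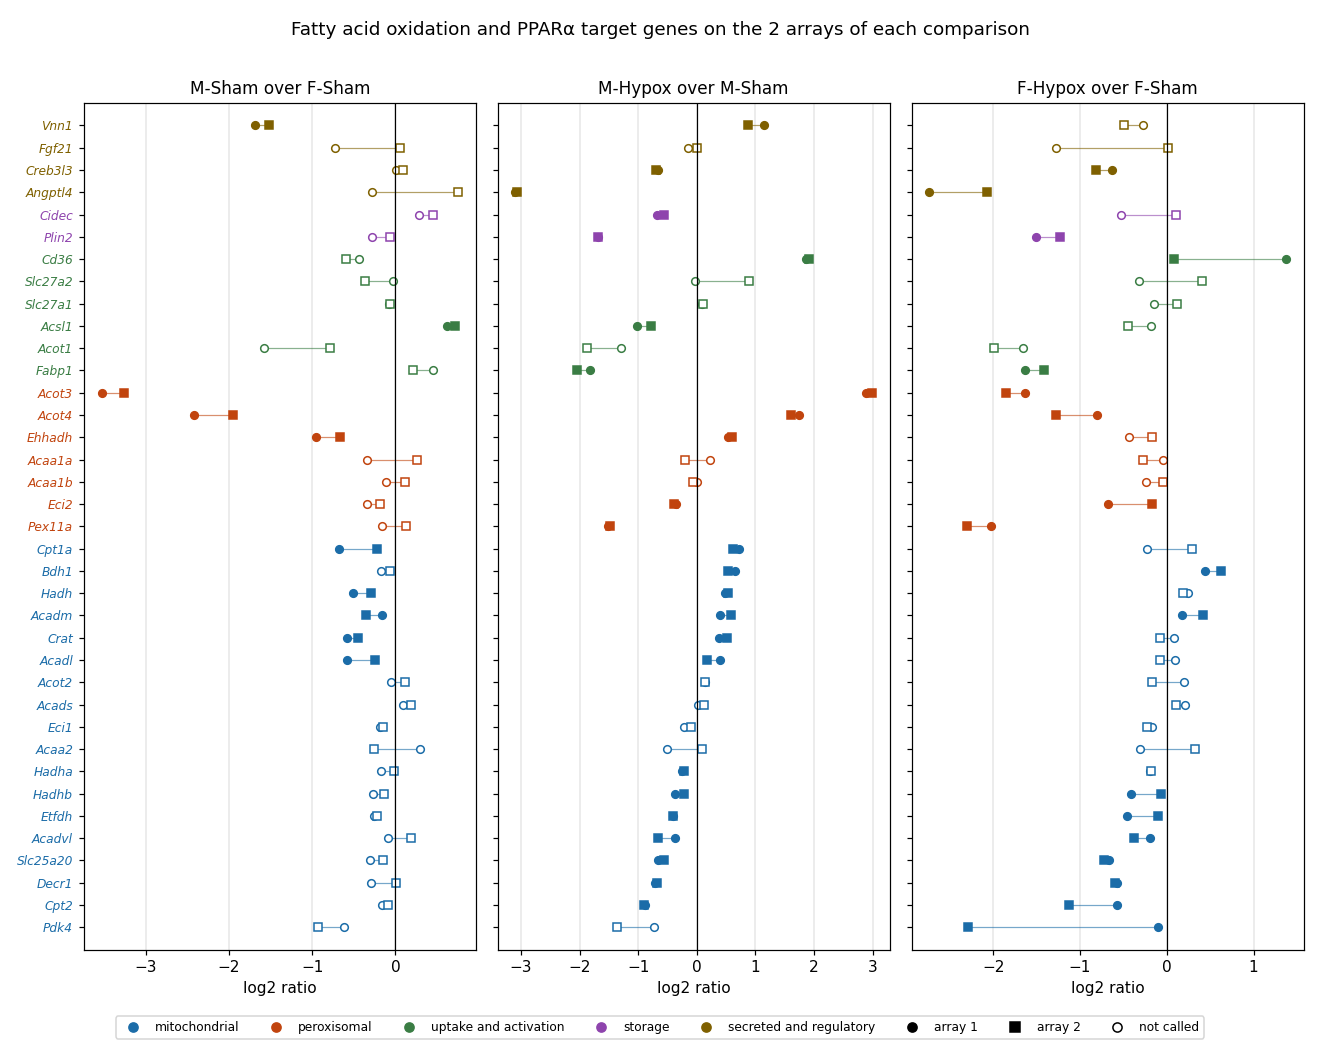
Log2 ratio of each of the 37 genes on array 1 (circle) and array 2 (square) in M-Sham over F-Sham, M-Hypox over M-Sham and F-Hypox over F-Sham, coloured by role and filled where called. Acot3 lies at -3.40 in the first comparison, 2.93 in the second and -1.74 in the third, while Angptl4, Plin2, Pex11a and Fabp1 lie below -1.3 in both Hypox comparisons; the horizontal axes differ in range.

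Hypophysectomy of males moved genes of the set in both directions. Of the 37 genes, 11 rose and 15 fell in M-Hypox over M-Sham, where 37.3% of all tested genes were called (18.8% higher and 18.6% lower). The median of the set was -0.16, against 0.01 over all tested genes. Both storage genes fell (median -1.15). Mitochondrial genes divided into 6 that rose and 7 that fell (median -0.19), and peroxisomal genes into 3 that rose and 2 that fell (median 0.01). Of 6 uptake and activation genes, 1 rose and 2 fell, and of 4 secreted or regulatory genes, 1 rose and 2 fell.

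Among the mitochondrial genes, entry steps went apart. Cpt1a rose, at 0.71 and 0.62 on the arrays (0.67 ± 0.13, 1.59-fold, adjusted p = 0.00133). Cpt2, which turns acylcarnitine back to acyl-CoA inside the mitochondrion, fell, at -0.89 and -0.90 (-0.90 ± 0.13, 1.86-fold, adjusted p = 0.000191). Slc25a20, the carrier that brings acylcarnitine across the inner membrane, fell as well, at -0.65 and -0.56 (-0.61 ± 0.08, adjusted p = 8.39e-05). For all 3 the arrays lay closer to each other than to 0.

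The shortening steps also divided by enzyme. The dehydrogenases Acadm (0.39 and 0.59, mean 0.49), Hadh (0.47 and 0.53, mean 0.50) and Acadl (0.40 and 0.18, mean 0.29) rose, as did Crat (0.37 and 0.52, mean 0.45). The very-long-chain dehydrogenase Acadvl fell, at -0.38 and -0.66 (-0.52 ± 0.06, adjusted p = 3.67e-05), and so did Decr1, which handles unsaturated chains, at -0.72 and -0.69 (-0.70 ± 0.12, adjusted p = 0.000743). Etfdh, which passes electrons of the dehydrogenases to the respiratory chain, read -0.40 and -0.41 (-0.41). The trifunctional protein subunits fell least, Hadhb at -0.29 and Hadha at -0.24. Bdh1, which interconverts ketone bodies, rose, at 0.65 and 0.54 (0.59 ± 0.08, adjusted p = 8.98e-05). Pdk4, the kinase that spares glucose by blocking pyruvate oxidation, read -0.73 and -1.35 (-1.04 ± 0.40) and was not called.

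The peroxisomal genes spanned the widest range of any role. Acot3 read 2.88 and 2.99 (2.93 ± 0.26, 7.64-fold higher, adjusted p = 3.08e-06), and Acot4 read 1.75 and 1.61 (1.68 ± 0.20, 3.20-fold higher, adjusted p = 3.81e-05). Ehhadh rose by less, at 0.53 and 0.61 (0.57 ± 0.11, adjusted p = 0.00173). Pex11a, a membrane protein of peroxisome division, fell, at -1.51 and -1.48 (-1.49 ± 0.16, 2.82-fold, adjusted p = 1.56e-05). Eci2, an isomerase for unsaturated chains, read -0.35 and -0.39 (-0.37). The thiolases Acaa1a (0.01) and Acaa1b (-0.03) were not called.

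Uptake, storage and secreted genes held the largest falls of the comparison. The fatty acid translocase Cd36 rose, at 1.87 and 1.91 (1.89 ± 0.23, 3.7-fold, adjusted p = 3.62e-05). Fabp1, the abundant fatty acid binding protein of liver, fell, at -1.83 and -2.04 (-1.94 ± 0.27, 3.83-fold, adjusted p = 0.000135), and Acsl1 fell, at -1.02 and -0.78 (-0.90 ± 0.17, adjusted p = 0.000947). The membrane transporters Slc27a1 (0.10) and Slc27a2 (0.43) were not called, so that only Cd36 rose among the 6 genes of this role. Plin2, the main coat protein of liver lipid droplets, read -1.68 and -1.69 (-1.69 ± 0.11, 3.22-fold lower, adjusted p = 2.64e-07), and the droplet protein Cidec -0.67 and -0.57 (-0.62 ± 0.16, adjusted p = 0.0081). Angptl4, a secreted inhibitor of lipoprotein lipase, fell most of all 37, at -3.09 and -3.06 (-3.08 ± 0.29, 8.45-fold, adjusted p = 4.64e-06). Creb3l3, a transcription factor that works with PPARα in fasting, fell, at -0.66 and -0.70 (-0.68 ± 0.07, adjusted p = 1.19e-05), and Vnn1 rose, at 1.14 and 0.87 (1.01 ± 0.29, adjusted p = 0.0147). Fgf21, a hormone that liver releases in fasting, read -0.15 and 0.01 (-0.07 ± 0.25) and was not called. Of the 26 calls, 19 were kept without array 1, the losses being Acadl, Acsl1, Cidec, Cpt1a, Hadha, Hadhb and Vnn1. Without array 2 again 19 were kept, the losses being Acadl, Cidec, Crat, Eci2, Etfdh, Hadha and Vnn1. With median centring 7 rose and 4 fell. Of 15 muscle markers 9 fell in this comparison (median -2.48) and of 7 lymphocyte markers 6 rose, and their part was not tested. This comparison and that of the sham sexes share the M-Sham group, so opposite signs of a gene in the 2 are not independent.

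In females, 3 genes rose and 15 fell in F-Hypox over F-Sham, where 31.1% of all tested genes were called (14.6% higher and 16.5% lower). The median of the set was -0.28, against 0.00 over all tested genes. No peroxisomal gene rose and 4 of 7 fell (median -0.43). Of the mitochondrial genes 2 rose and 7 fell (median -0.09), and of the storage genes 1 fell (median -0.79).

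Peroxisomal genes fell as follows. Pex11a read -2.03 and -2.31 (-2.17 ± 0.16, 4.50-fold lower, adjusted p = 1.63e-06). Acot3 read -1.63 and -1.85 (-1.74 ± 0.26, 3.34-fold lower, adjusted p = 0.000319), and Acot4 read -0.81 and -1.27 (-1.04 ± 0.20, 2.06-fold lower, adjusted p = 0.00191). All 3 were low on both arrays, and the fourth, Eci2, was lower by less, at -0.68 and -0.18 (-0.43). Ehhadh read -0.43 and -0.18 (-0.30) and was not called.

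Outside the peroxisome, Angptl4 fell, at -2.74 and -2.07 (-2.40 ± 0.29, 5.29-fold, adjusted p = 6.41e-05), with Fabp1 at -1.63 and -1.41 (-1.52 ± 0.27, adjusted p = 0.00116) and Plin2 at -1.51 and -1.23 (-1.37 ± 0.11, adjusted p = 3.37e-06). Creb3l3 read -0.63 and -0.82 (-0.72). These 4 had also fallen in males. Of the mitochondrial genes Cpt2 read -0.57 and -1.13 (-0.85), Slc25a20 -0.66 and -0.72 (-0.69) and Decr1 -0.57 and -0.60 (-0.59), all with both arrays well below 0. Acadvl (-0.29), Etfdh (-0.28) and Hadhb (-0.24) fell by less. Bdh1 rose, at 0.44 and 0.63 (0.53), and so did Acadm, at 0.17 and 0.41 (0.29).

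The calls of Cd36 and Pdk4 in females rest on 1 array each. Cd36 read 1.37 and 0.09 (0.73 ± 0.23, adjusted p = 0.0273), and without array 1 its value was 0.19 (adjusted p = 0.678). Pdk4 read -0.10 and -2.29 (-1.19 ± 0.40, adjusted p = 0.0383), and without array 2 it was -0.29 (adjusted p = 0.775). The F-Hypox pool of array 2 came from 2 mice, and that of array 1 from 3. In the red channel of array 2, which read that F-Hypox pool, 57.1% of spots were well above background. The red channels of all other arrays had 70.5% to 77.7%. The part of this weaker channel in the calls was not tested. Of the 18 calls, 12 were kept without array 1, the losses being Acadm, Acadvl, Cd36, Eci2, Etfdh and Hadhb. Without array 2 again 12 were kept, the losses being Acadvl, Acot4, Decr1, Etfdh, Fabp1 and Pdk4. With median centring none rose and 5 fell. Muscle markers did not pass the test in females (median 0.05, 0 of 15 called, with array medians of 0.07 and 0.02). Of 7 lymphocyte markers 4 rose here, and of 8 adipocyte markers 2 rose, with a summed level of 7273 to 8018 in F-Sham against 12130 to 16660 in F-Hypox. Their part was not tested.

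Side by side, 12 genes fell in both sexes, 3 rose in both (Cd36, Bdh1 and Acadm) and 2 rose in males but fell in females (Acot3 and Acot4). The 15 same-way calls were 57.7% of the 26 male calls and 83.3% of the 18 female calls, and these comparisons share no group. Over all tested genes the same-way calls were 54.1% of the male and 65% of the female calls. The 12 were 6 mitochondrial genes (Cpt2, Slc25a20, Acadvl, Decr1, Etfdh and Hadhb), 2 peroxisomal (Pex11a and Eci2), 1 of uptake (Fabp1), 1 of storage (Plin2) and 2 secreted or regulatory (Angptl4 and Creb3l3). Another 6 rose in males and were not called in females, and 3 fell in males and were not called in females.

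The difference between the male and the female response was tested directly, as a contrast of the same fit. Its sham groups are also those of M-Sham over F-Sham, so the results of a gene in both are not independent. The difference was called for 4 of the 37 genes, always towards males. Over all tested genes 6.73% were called (3.22% towards males and 3.51% towards females). Acot3 differed by 4.67 ± 0.37 (adjusted p = 9.38e-06) and Acot4 by 2.72 ± 0.29 (adjusted p = 0.000121). Ehhadh differed by 0.87 ± 0.16 (adjusted p = 0.00717) and Cd36 by 1.16 ± 0.32 (adjusted p = 0.0494). So 3 of the 4 are peroxisomal, and the contrast was above 0 for all 7 peroxisomal genes (median 0.67), for 10 of 18 mitochondrial genes (median 0.05) and for neither of the 2 storage genes (median -0.36). Over all tested genes it was above 0 for 52.4% (median 0.01). Of 33 other peroxisomal genes of the pathway, 4 differed towards males and 4 towards females, and 16 lay above 0 (median -0.03). Vnn1 (1.39 ± 0.41, adjusted p = 0.0611), Cpt1a (0.63 ± 0.18, adjusted p = 0.0577) and Pex11a (0.67 ± 0.23, adjusted p = 0.104) were not called. Without array 1 the difference was 0.78 for Ehhadh (adjusted p = 0.175), and without array 2 it was 0.97 (adjusted p = 0.0914). For Cd36 it was 1.82 without array 1 (adjusted p = 0.0408) and 0.50 without array 2 (adjusted p = 0.597). The call of Ehhadh was also lost with median centring (adjusted p = 0.405), and that of Cd36 under 6 other settings (adjusted p from 0.0503 to 0.493). Acot3 and Acot4 kept their calls without either array. A fit that estimates group levels from all arrays around the loop called 9 genes towards males and 5 towards females, where it called 22.2% of all tested genes.

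**Figure D2:**
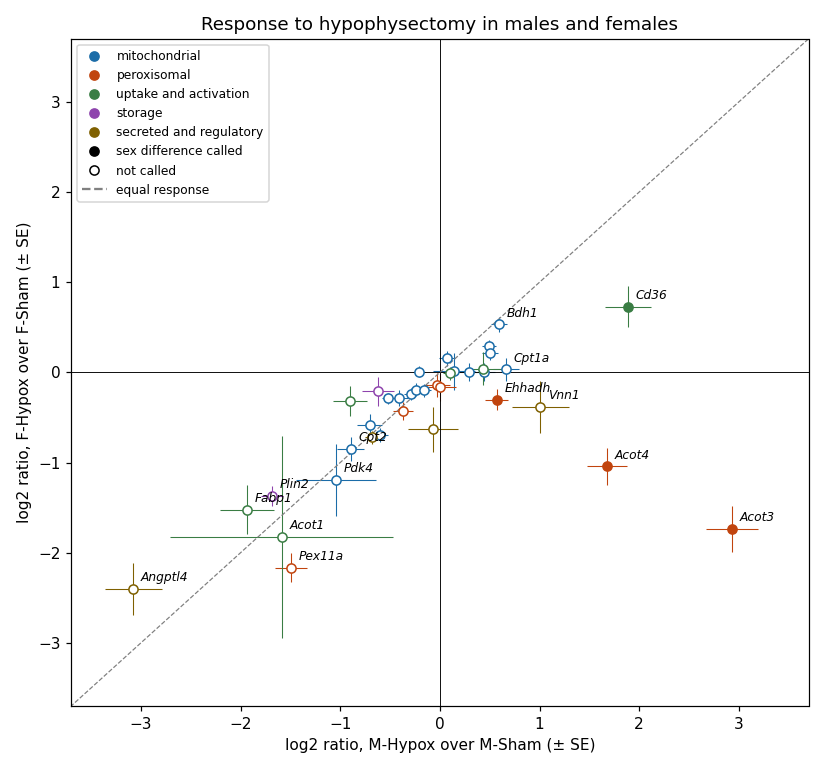
Log2 ratio after hypophysectomy in males (horizontal axis, M-Hypox over M-Sham) against females (vertical axis, F-Hypox over F-Sham) for the 37 genes, with SE as bars, coloured by role and filled where the sex difference was called; the dashed line marks equal responses. Acot3 (2.93 and -1.74) and Acot4 (1.68 and -1.04) lie far below the line, whereas Angptl4, Fabp1 and Plin2 lie near it in the lower left.

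The direct comparison of M-Hypox with F-Hypox asked what remains of the sex difference without a pituitary. None of the 37 genes was called by limma, where 1.63% of all tested genes were called, and 12 had an unadjusted p under 0.05. Acot3 read 0.66 and 1.49 (1.07 ± 0.26, adjusted p = 0.0603), Acot4 0.10 and 0.83 (0.47 ± 0.20) and Ehhadh -0.08 and -0.07 (-0.08 ± 0.11). All 3 had been lower in intact males, and in Hypox mice none lay clearly below 0. Cd36 read 0.32 and 1.59 (0.95 ± 0.23, adjusted p = 0.0586), with the higher value on the array whose F-Hypox pool came from 2 mice. Plin2 read -0.47 and -0.42 (-0.45 ± 0.11, adjusted p = 0.0686). The fit of group levels around the loop called 8 of the 37 genes here, 2 higher and 6 lower in males, where it called 10% of all tested genes. Of M-Hypox+GH(30) over F-Hypox+GH(30), where 0.508% of all tested genes were called, limma called none of the 37, and 16 had an unadjusted p under 0.05. There Acot3 read -0.54 and 0.55 and Acot4 -0.58 and 0.58, so that the arrays disagreed in sign.

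Few of the genes were called within 90 min of GH given to Hypox mice. The comparisons of 1 sex draw on 1 Hypox group, but the Hypox pool seemed to differ between times. Macrophage markers in M-Hypox summed to 54630 and 53100 on the arrays at 30 min and to 32990 and 32070 at 90 min. Lymphocyte markers in F-Hypox summed to 1771 and 1666 at 30 min and to 2198 and 2172 at 90 min. Muscle markers in M-Hypox were less alike between arrays at 30 min (12580 and 2702). Time after GH cannot be told apart from the Hypox pool here. At 30 min limma called none of the 37 in males, where 2.51% of all tested genes were called, and none in females, where 0.0191% were; 6 genes in each sex had an unadjusted p under 0.05. At 90 min 1 gene rose in each sex, Acot3, where 4.98% of all tested genes were called in males (3.4% higher) and 3.17% in females (2.35% higher). Acot3 read 1.01 and 1.17 in males (1.09 ± 0.26, 2.13-fold, adjusted p = 0.0307). It read 1.91 and 1.97 in females (1.94 ± 0.26, 3.83-fold, adjusted p = 0.00225). The female arrays lay above both male arrays, but the difference of the responses was not called (-0.85 ± 0.37, adjusted p = 0.457). At 30 min Acot3 had read -0.73 and 0.23 in males and 0.66 and 0.58 in females. With 1 array left out, the male call was lost in either case, and the female call was lost without array 2. The male call was also lost without the arrays of sham mice, with the scanner's own log ratios and with median centring.

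After 2 injections, 1 gene rose and 8 fell in males, where 19.3% of all tested genes were called (10.6% higher and 8.72% lower). In females 4 rose and 2 fell, where 8.44% were called (4.4% higher and 4.03% lower). The medians of the set were -0.13 and -0.08. In males 4 of 18 mitochondrial and 2 of 7 peroxisomal genes fell and neither storage gene was called. In females 2 peroxisomal genes rose, 1 mitochondrial gene rose and 1 fell.

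Acsl1 and Crat were called the same way in both sexes. Acsl1 rose, at 1.11 and 0.55 in males (0.83 ± 0.17, adjusted p = 0.00354) and at 0.83 and 1.24 in females (1.03 ± 0.17, adjusted p = 0.00388). Crat fell, at -0.65 and -0.43 in males (-0.54 ± 0.10, adjusted p = 0.00269) and at -0.48 and -0.51 in females (-0.50 ± 0.10, adjusted p = 0.0125). No array of either gene crossed 0, but the 2 arrays were not independent on the Hypox side. The F-Hypox pools held 2 mice each and look like the same pool by their markers, and the M-Hypox pools shared mice. Cd36 fell in both as well, at -0.64 and -0.75 in males (-0.70 ± 0.23, adjusted p = 0.0487) and at -1.28 and -1.29 in females (-1.29 ± 0.23, adjusted p = 0.00604). In the female comparison 13 of the 15 muscle markers fell (median -2.79), the F-Hypox pools there reading 119500 and 121800. The part of muscle in the female values, such as those of Crat and of Cd36, which muscle also expresses, was not tested. Adipocyte markers summed to 16500 and 16660 in these F-Hypox pools and to 10010 and 7933 in F-Hypox+2GH (1 of 8 lower). In the male comparison the muscle markers had array medians of -0.03 and 2.42 (1 of 15 higher), with 60110 in M-Hypox+2GH against 6562 in M-Hypox on array 2. Of 8 exocrine pancreas markers 7 rose there (median 2.12), with array medians of 0.54 and 3.64. The part of these cells was not tested. With the replicate number as a block, the male calls of Cd36 (adjusted p = 0.0582) and Acadm (adjusted p = 0.0585) were lost.

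The remaining calls after 2 injections were in 1 sex. In females Acot3 rose, at 1.35 and 1.86 (1.61 ± 0.26, adjusted p = 0.00388), Acot4 rose, at 0.80 and 0.83 (0.81 ± 0.20, adjusted p = 0.0287), and Decr1 rose, at 0.53 and 0.36 (0.44 ± 0.12, adjusted p = 0.0472). In males the same genes read 0.33 and 0.56, 0.27 and -0.08, and -0.06 and -0.08. Male arrays of all 3 genes thus lay below the female ones. The male falls were Fgf21, at -0.69 and -1.13 (-0.91 ± 0.25, adjusted p = 0.0209), Cpt1a, at -0.61 and -0.40 (-0.51 ± 0.13, adjusted p = 0.0148), Hadh, at -0.43 and -0.31 (-0.37), and Acadm, at -0.37 and -0.05 (-0.21). The thiolases of the peroxisome fell too, Acaa1a at -0.68 and -0.35 (-0.51) and Acaa1b at -0.71 and -0.24 (-0.47); they are close copies of each other whose probes may read both. The difference between the sexes was called for none of the 37 genes by limma, at 30 min, 90 min or after 2 injections, where 0.00764%, 0.00764% and 1.98% of all tested genes were called. An unadjusted p under 0.05 was reached by 4, 3 and 4 genes. After 2 injections the contrast was -1.16 ± 0.37 for Acot3 (adjusted p = 0.109), so calls in 1 sex are not shown to differ between them. Without array 1 none of the 9 male calls was kept (0), and without array 2 4 were (Acsl1, Crat, Hadh and Acaa1a). Of the 6 female calls, 2 were kept without array 1 (Acsl1 and Acot3) and none (0) without array 2. With median centring 0 male genes and 1 female gene, Acot3, were called.

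**Figure D3:**
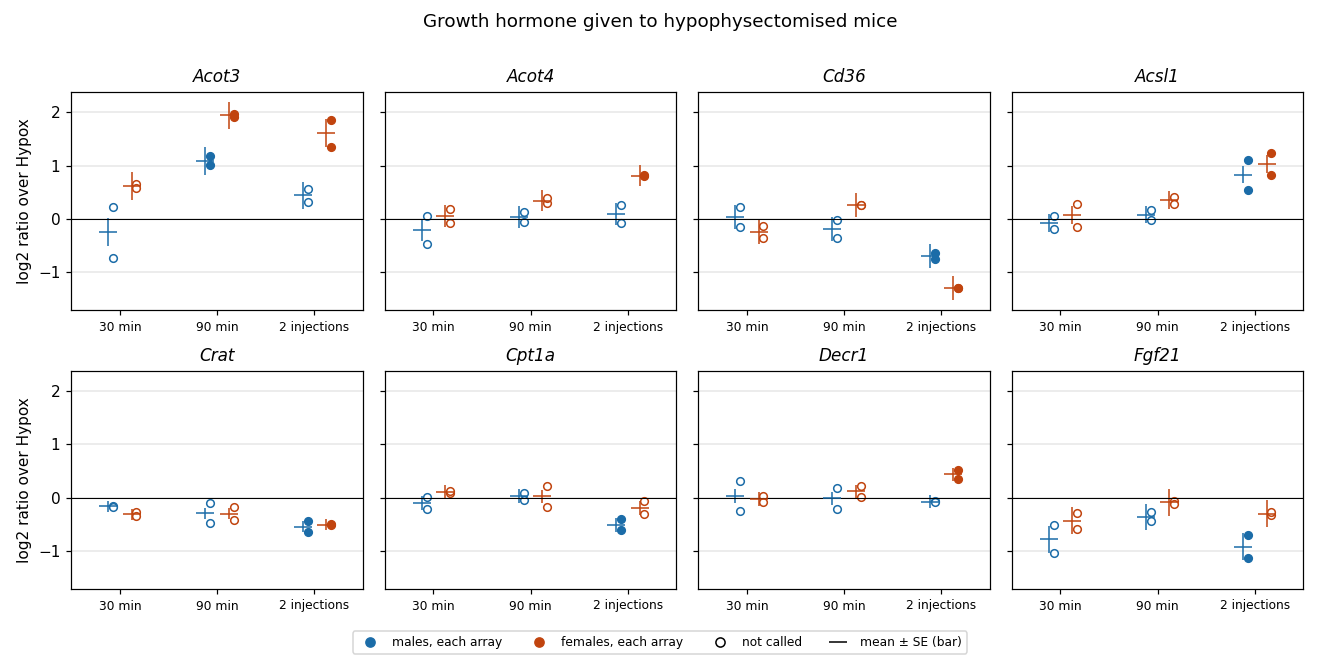
Log2 ratio of GH-treated over Hypox mice on each array (points, filled where called) with the fitted mean and SE, in males and females, 30 min and 90 min after 1 injection and after 2 injections, for 8 genes of the set. Acot3 rises at 90 min in both sexes (1.09 and 1.94), and Acsl1 (0.83 and 1.03), Crat (-0.54 and -0.50) and Cd36 (-0.70 and -1.29) are called in both sexes in the column for 2 injections.

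Angptl4, Plin2, Pex11a and Fabp1, which fell in both sexes after hypophysectomy, were not called after GH in either sex. Angptl4 lay between -0.83 and 0.86 on the 12 arrays of GH over Hypox, and Plin2 between -0.30 and 0.25. Pex11a lay between -0.51 and 0.53. No array thus rose by as much as the gene had fallen after hypophysectomy. Fabp1 lay between -0.73 and 1.29, with the higher value of each pair on array 2, and its probe had a dye effect of 0.42 (adjusted p = 0.00584). In all, 6 of the 37 genes had a dye effect (16.2%, against 11.0% of all tested genes). The fit takes it out of the mean, while the values on single arrays and the rule on their signs keep it.

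The thioesterase genes of this family form a cluster. Acot1 and Acot2 are neighbours in the genome, as are Acot4 and Acot3, with 1 annotated gene between Acot1 and Acot4. They are close copies, and the sequences of their probes were not used here, so that cross-reading of a probe cannot be told apart from a shared change. Acot1, the cytosolic member, was called in no comparison, because 1 spot enlarged its SE to 1.12. That spot, array 2 of F-Hypox+GH(90) over F-Hypox, read 7.26 against -0.53 on array 1, and its local green background was 47621 where the other arrays had 240 to 289. Without that spot, an alternative chosen after its values were seen, Acot1 was -1.18 in M-Sham over F-Sham (adjusted p = 0.011), -1.59 in M-Hypox over M-Sham (adjusted p = 0.000396) and -1.83 in F-Hypox over F-Sham (adjusted p = 0.000233). It then fell in both sexes, whereas Acot3 and Acot4 rose in males. The GH(90) value in females went from 3.37 to -0.69, and the sex difference at 90 min from -2.88 to 1.18. Acot2, the mitochondrial member, was not called and was dim: it was well above background on 1 of 4 arrays of M-Sham, 1 of 4 of F-Sham, 8 of 10 of M-Hypox, 7 of 10 of F-Hypox and 0 of 2 of M-Hypox+GH(90).

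The other 6 genes without a call were Acads, Acaa2, Eci1, Slc27a1, Slc27a2 and Acot2, so that 30 of the 37 were called at least once. Acads read 0.09 and 0.18 in M-Sham over F-Sham, 0.02 and 0.13 in M-Hypox over M-Sham, and 0.20 and 0.11 in F-Hypox over F-Sham. Eci1 read -0.22 and -0.10 in M-Hypox over M-Sham and -0.17 and -0.23 in F-Hypox over F-Sham. Acaa2, the mitochondrial thiolase, read -0.52 and 0.10 in M-Hypox over M-Sham (-0.21, adjusted p = 0.0131). It was not called because its arrays disagreed in sign. The rule on signs reads the arrays before the dye effect is taken out. The probe of Acaa2 had a dye effect of 0.306 (adjusted p = 4.4e-07 by limma). The fatty acid transporter Slc27a2 read -0.02 and 0.88 in the same comparison, with a dye effect of 0.35 (adjusted p = 0.00126 by limma). Of the 37 genes 8 had more than 1 probe; in the 18 calls of 7 of these genes, all 19 readings of another probe went the same way as the probe used.

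Other genes of the pathway gave the setting of these changes. Of 98 tested, 18 rose and 34 fell in M-Hypox over M-Sham, 15 rose and 34 fell in F-Hypox over F-Sham, and 8 were higher and 8 lower in M-Sham over F-Sham. Over all tested genes 18.8% rose and 18.6% fell in the first comparison and 14.6% rose and 16.5% fell in the second. In the third 5.03% were higher and 3.75% lower. The median of the 98 genes was -0.07, -0.13 and 0.02, in that order. The largest falls in males were Nudt7, a peroxisomal hydrolase of coenzyme A (-4.67 and -3.76, mean -4.21), Lpin1, which makes diacylglycerol and coactivates PPARα (-2.82 and -3.12, mean -2.97), and the binding protein Fabp2 (-2.18). Those in females were Lpin1 (-3.57 and -3.22, mean -3.39), Nudt7 (-3.18) and Hacl1, of peroxisomal alpha oxidation (-2.66). The largest rises in males were Nudt19, another hydrolase of coenzyme A (2.33 and 2.09, mean 2.21), the peroxisomal transporter Abcd2 (2.17) and the receptor Pparg (1.60), and those in females Pparg (1.93), Nudt19 (1.52) and Acad10 (0.91). In M-Sham over F-Sham, Fitm1, which helps form lipid droplets (1.86), Nudt7 (1.85) and Scp2 (1.04) were higher and Abcd2 (-2.42), Acot12 (-0.75) and the droplet protein Plin5 (-0.71) were lower. Of 15 muscle markers 3 were also higher there (median 2.36), and their part in these values, that of Fitm1 included, was not tested. Ppara, named after its values were seen, fell in both sexes, at -1.10 and -1.49 in males (-1.30 ± 0.21, adjusted p = 0.000397) and at -1.42 and -1.95 in females (-1.68 ± 0.21, adjusted p = 9.35e-05), and was 0.07 in M-Sham over F-Sham, where it was not called. Of the 98 genes, 2 rose at 30 min after GH in males and none in females, where 2.51% and 0.0191% of all tested genes were called. At 90 min 3 rose and 2 fell in males (4.98% of all tested genes called) and 3 rose and 3 fell in females (3.17%). After 2 injections 5 rose and 17 fell in males (19.3%) and 6 rose and 5 fell in females (8.44%).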

How the data were processed

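The deposited scanner files hold spot intensities, per the file headers from Feature Extraction 9.5.1.1 and 9.5.3.1, and a log10 ratio of red (Alexa 647) over green (Alexa 555). The deposited value table holds log2 ratios that equalled the scanner's log ratio within 0.005; 16 of its 22 columns matched the scanner file of the other replicate, and the scanner numbering was used. A genome build is not given in the sources used here.

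Mean signals were background-corrected (normexp, offset 50) and loess-normalised within arrays, without control and outlier spots, in limma 3.58.1 (R 4.3.3). Ratios were turned by dye label. The brightest probe stood for a gene. One fit of 22 arrays had 11 comparison terms and a dye term, and its adjusted p-values come from limma over all tested genes. Each gene of the set has the same SE in all 11 comparisons, since the fit pools the spread between arrays over them. The SE is thus not the spread of the 2 arrays it stands beside. The spread between pools bounds the precision. Probe names came from RefSeq accessions for 22072 probes. Values on both arrays were given for up to 4 called members per role and comparison, and the 3 largest calls each way for other pathway genes. The members and lists were chosen with earlier results of these data known. Alternatives were median centring, the scanner's log ratio, no dye term, no filter, the mean over probes, a loop model, slide and replicate blocks, no sham arrays and leaving out each array.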

Additional observations from a re-analysis of the deposited data

Results flagged for a closer look

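The response to hypophysectomy differed between males and females, by the contrast of both responses in the limma fit, for 4 genes. Acot3 differed by 4.67 on the log2 scale (higher on both male arrays and lower on both female arrays) and Acot4 by 2.72 with the same pattern. Ehhadh differed by 0.87, with both male arrays above 0 and both female arrays below 0. Cd36 differed by 1.16, with all 4 arrays above 0 and the female arrays at 1.37 and 0.09.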

How the results depend on the processing

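All 75 calls of single genes kept their direction under every alternative run. Median centring ended 52 of them, no dye term 14, the scanner's log ratio 9, no filter on dim probes 5, the replicate block 3, the mean over probes 2 and the slide as a random block 1; the loop model ended 0. Without the sham arrays, 4 of the 17 calls it could bear on were lost. The cause of these losses was not tested.

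Counts of called genes moved by over 1.5 times as follows. With median centring they were 3 in M-Sham over F-Sham (1.62% of all tested genes), 11 in M-Hypox over M-Sham (11.4%), 0 in males at 90 min (0.458%), 0 in males after 2 injections (1.75%), 5 in F-Hypox over F-Sham (7.26%), 1 in females after 2 injections (0.309%) and 2 for the sex difference of Hypox (0.562%). The scanner's log ratio gave 0 in males at 90 min (3.74%) and 5 in males after 2 injections (16.6%). The loop model gave 2 in males at 90 min (6.48% of all tested genes), 8 in M-Hypox over F-Hypox (10%), 2 between the sexes at 30 min (3.49%), 14 for the sex difference of Hypox (22.2%) and 1 for that at 30 min (1.75%). Without the sham arrays the count was 1 in males at 30 min (1.74%) and 1 in M-Hypox over F-Hypox (1.16%).

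Over 55 pairs of comparisons the residuals of array 1 correlated at -0.359 to 0.871, with 20 above 0.1. Pairs of comparisons that share no group enter this range, and a pool shared on opposite sides gives a negative value. The range therefore cannot show whether the replicate numbers pair the pools. For M-Sham, pools recurred by number: its muscle markers summed to 21030 and 20160 on array 1 of its comparisons and to 64170 and 65430 on array 2. For M-Hypox the number did not follow the marker levels. Its macrophage markers summed to 52830 and 31480 on arrays 1 and 2 of M-Hypox over M-Sham. They summed to 54630 and 53100 at 30 min after GH and to 32990 and 32070 at 90 min. A replicate block thus may not follow the Hypox pools in the GH comparisons. With the number as a replicate block the count was 2 in males at 90 min (5.76% of all tested genes), 1 in M-Hypox over F-Hypox (1.83%) and 1 for the sex difference after 2 injections (2.82%). Leaving out 1 array number gave 2 to 6 in M-Sham over F-Sham, 19 to 19 in M-Hypox over M-Sham, 12 to 13 in F-Hypox over F-Sham, 0 to 0 in males at 90 min, 0 to 5 in males after 2 injections, 0 to 2 in females at 90 min, 0 to 2 in females after 2 injections, 2 to 3 for the sex difference of Hypox and 0 to 1 for that at 90 min. Leaving out the Acot1 spot was chosen after seeing the data. Scan day could not be fitted as a block, since each comparison lies within 1 scan day. With 2 arrays a comparison, differences that are small against the SE of a gene are beyond detection here.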
